A study of Mus musculus with 12 samples.

Results

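Skeletal muscle of obese mice injected with PCN was compared with muscle of obese mice that received no injection. The comparison used 6 of the 12 libraries of the study, namely PCN 5, 11 and 27 against HFD 4, 30 and 38, and was made over 21976 genes present in both deposited count tables. All 12 libraries came from C57BL/6N mice put on a diet at 6 weeks of age and kept on it for 18 weeks. The PCN group ate the high-fat diet and received 50 mg/kg of PCN intraperitoneally once a day for 4 days, and the HFD group ate the same diet without injection. A further high-fat-diet group, called Vehicle here, was injected for the same number of days with the solvent, which held 30% DMSO, and the Chow group ate regular chow without injection. PCN and HFD therefore differed by the compound, by the solvent, by the act of injection and by the table in which their counts were deposited, and these 4 differences cannot be told apart in this comparison. The sources used here do not give the muscle that was sampled, the sex of the mice or whether each library came from a separate mouse, so p-values measure the spread between these libraries.

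PCN, pregnenolone carbonitrile, is a synthetic steroid that activates the pregnane X receptor (PXR, gene Nr1i2) of rodents. PXR is a nuclear receptor best known in liver and gut, where it pairs with the retinoid X receptor and switches on cytochrome P450, transferase and efflux-pump genes. Of 41 PXR-linked genes listed here, 21 were in both tables and 16 of these were abundant enough to test in this muscle. Stress hormones, feeding and activity act on muscle through the glucocorticoid receptor, FoxO factors, cyclic-AMP signalling and the clock, and genes of these pathways were listed as well.

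Library totals were 14379421 to 19739226 counts in PCN and 14266093 to 17096576 in HFD. All 10 defining fibre markers were tested, and their summed level was 215300 to 310400 counts per 1000000 (CPM) in PCN and 297600 to 420800 in HFD. Levels are given throughout as CPM scaled by TMM factors over all 12 libraries. The PCN libraries were less alike than the HFD libraries, with a chi-square per gene between pairs of 72.7 to 121 against 21.6 to 34.6. PCN 5 stood apart in slow-fibre genes, whose mean log2(CPM + 0.5) was 6.21 there, against 3.77 and 3.67 in PCN 11 and 27 and 3.86 to 5.23 in HFD. HFD 38 had the highest adipocyte, fibroblast and macrophage levels of its group, and PCN 27 the highest proteasome level. Nr1i2, Cyp3a11, the classical PXR target in liver, and Myh7, the slow myosin heavy chain, were not in both tables and were not analysed here.

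Of 12686 genes tested with edgeR's quasi-likelihood test, 373 (2.94%) passed an adjusted p of 0.05. In PCN muscle 165 (1.3%) were higher and 208 (1.64%) lower. These shares are the background for the counts of called genes in each list below. The rises were modest, with a median log2 fold change of 0.84 and 36 genes changed at least 2-fold, and the falls larger, with a median of -1.09 and 122 genes changed at least 2-fold. In all 373 genes the PCN and HFD ranges did not overlap, against 3427 (27%) of all genes tested. The same values had selected the 373 genes, so this is no further support for them. An unadjusted p under 0.05 was reached by 2631 genes (20.7%), and the lowest adjusted p was 0.00699. The plot of fold change against p shows Hipk2, Atp1b2 and Fras1 at the top of the falls and Rps27 near the top of the rises. The calls rested on all 3 HFD libraries. Without HFD 4 edgeR called 0 genes (2013 at an unadjusted p under 0.05), and without HFD 30 or HFD 38 it called 3 each, while DESeq2 called 392, 311 and 492 without these 3 libraries and 816 (8.38%) with all. Without PCN 11 edgeR called 634, and without PCN 27 it called 192.

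**Figure D1:**
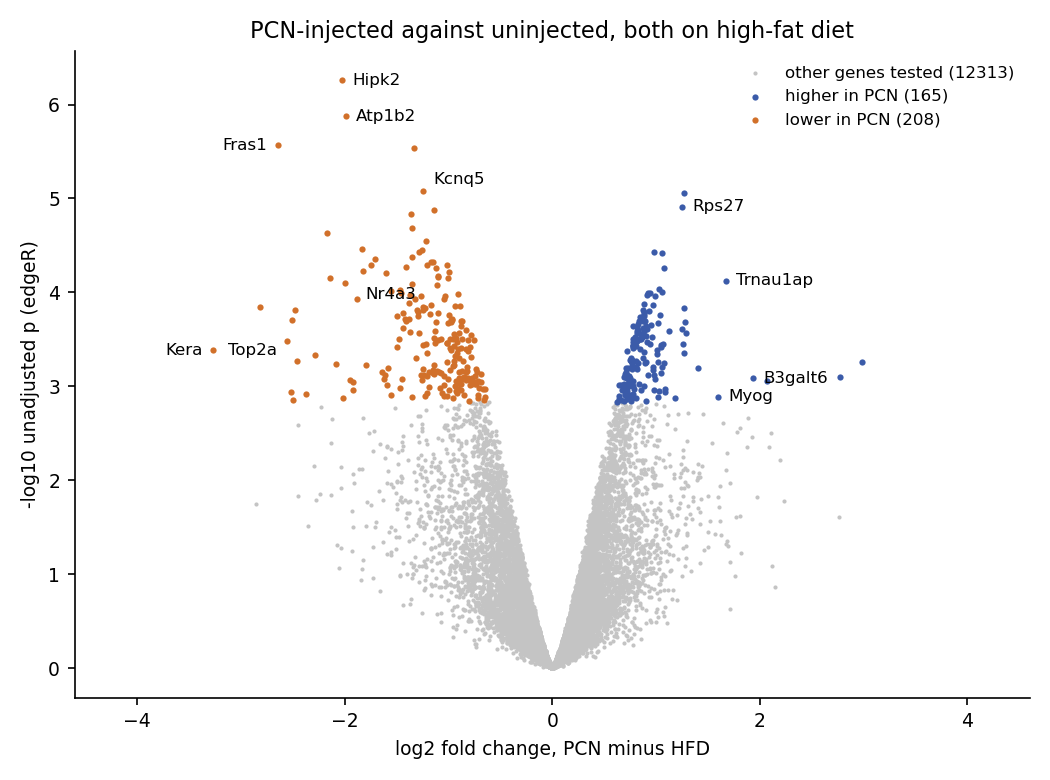
Each point is 1 of the 12686 genes tested. The x axis is the log2 fold change of PCN minus HFD, the y axis is -log10 of the unadjusted edgeR p, blue marks the 165 genes called higher and orange the 208 called lower. The called falls reach -3.27, for Kera, and the called rises 2.98, with medians of -1.09 and 0.84.

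The solvent-injected group allows values to be set side by side, with the same HFD libraries as control in each. Vehicle against HFD gave 193 called genes of 12746 (1.51%), 67 higher (0.526%) and 126 lower (0.989%), and DESeq2 gave 614 (7.87%). PCN against Vehicle, which share a table and the injections, gave 0 called genes of 12829 (0%) by edgeR and 0 by DESeq2, with 361 genes (2.81%) at an unadjusted p under 0.05 and a lowest adjusted p of 0.998. The size of the PCN and HFD difference depended on gene length. Its median log2 fold change was 0.22 in the shortest of 5 equal groups of genes by exonic length (median 1.69 kb), where 88 genes were called higher and 8 lower, and -0.16 in the longest group (median 10.1 kb), where 2 were called higher and 102 lower. Vehicle minus HFD ran from 0.18 to -0.15 over the same groups, and PCN minus Vehicle from 0.04 to -0.01. With a smooth length trend removed from each library, 131 genes were called, 40 higher and 91 lower. The part of gene length in the results below was not tested beyond that fit. It called 37 of the 83 called genes named in this report, and its result is not given beside every gene.

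**Figure D2:**
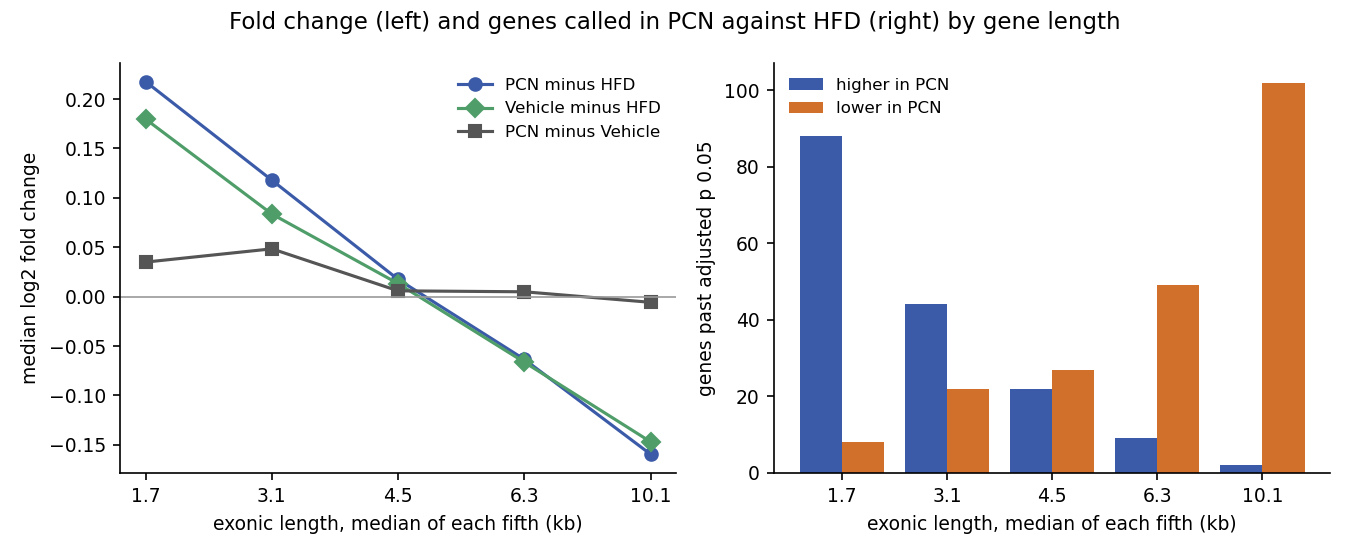
Left, the median log2 fold change in 5 equal groups of genes ordered by exonic length (x axis, median of each group in kb) for PCN minus HFD, Vehicle minus HFD and PCN minus Vehicle. Right, the number of genes called higher and lower in PCN against HFD in the same groups. Both comparisons with HFD fall with length, from 0.22 to -0.16 and from 0.18 to -0.15, and the third stays within 0.05 of 0.

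Genes of the cytosolic ribosome were higher in PCN. Ribosomal proteins form the small (Rps) and large (Rpl) subunits that translate mRNA, and many of their mRNAs begin with a C followed by a run of pyrimidines, the feature through which growth signalling controls their translation. The start-site stretches of Rps27 (chr3:90213634-90213683, minus strand), Rpl7a (chr2:26910772-26910821, plus strand) and Rps18 (chr17:33955651-33955700, minus strand) are shown from 35 bases before to 15 bases after the annotated start, from RefSeq on GRCm38.p6, because these 3 were among the 6 ribosomal protein genes with the lowest p. Capitals mark the C and at least 5 further pyrimidines within 10 bases of the start.
Rps27: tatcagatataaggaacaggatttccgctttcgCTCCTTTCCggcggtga
Rpl7a: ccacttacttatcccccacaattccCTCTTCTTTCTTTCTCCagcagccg
Rps18: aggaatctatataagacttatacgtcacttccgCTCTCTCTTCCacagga
Such a run was found in 30 of the 68 ribosomal protein start windows that matched by symbol (44.1%) and in 15.1% of all 32851 windows. Rpl11 (chr4:136053379-136053428, minus strand) and Rps7, which were called as well, have none there, and Rpl11 is shown for comparison.
Rpl11: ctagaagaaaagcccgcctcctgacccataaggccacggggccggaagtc

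All 76 ribosomal protein genes tested were higher in PCN than in HFD, 55 of them past the threshold and 75 with ranges that did not overlap. Over all genes tested, 51.5% were higher and 48.5% lower, and 13.9% were higher and 13.1% lower with ranges that did not overlap. Their median log2 fold change was 0.79 against 0.01 over all genes. Rps27, a small-subunit protein on chromosome 3, stood at 101, 107 and 115 CPM in PCN 5, 11 and 27 and at 47.1, 39.9 and 49.0 CPM in HFD 4, 30 and 38. All 3 PCN libraries lay above all HFD libraries, a 2.38-fold rise (log2 fold change 1.25 ± 0.15 SE, adjusted p = 0.0205). Rps18 was 99.9 ± 3.49 CPM (SD, n = 3) in PCN and 50.7 ± 0.339 CPM in HFD, a 1.98-fold rise (adjusted p = 0.0259). Rpl7a, a large-subunit protein, was at 256, 308 and 287 CPM in PCN and 143, 137 and 141 CPM in HFD, a 2.03-fold rise (adjusted p = 0.0263). Rpl11 (1.90-fold) and Rps7 (1.92-fold) rose with the same adjusted p. Vehicle lay between the groups, with Rps27 at 78.8, 93.8 and 78.2 CPM, a list median of 0.62 against HFD and 32 of the members called there. The list mean on the log2 scale spanned 6.48 to 6.71 in PCN and 5.77 to 5.88 in HFD, while Vehicle spanned 6.23 to 6.56 and Chow 5.87 to 6.44. These genes are short, and with the length trend removed the median was 0.63 and 12 passed the threshold. Reads of ribosomal protein genes can also be split with processed pseudogenes.

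Of 29 translation factors 24 were higher and 5 lower in PCN, and 3 passed the threshold, all of them higher. The list median was 0.35. Eif3e, a subunit of the initiation factor that loads the small subunit, was 113, 123 and 113 CPM in PCN and 71.5, 69.4 and 61.8 CPM in HFD (log2 fold change 0.79 ± 0.15 SE, adjusted p = 0.0279). The elongation factor subunits Eef1d (0.71) and Eef1b2 (0.70) rose as well. Eef1b2 was not called with the length trend removed (adjusted p = 0.0930). Several of the 15 largest rises are described here. Impdh2, the rate-limiting enzyme of guanine nucleotide synthesis, stood at 52.2, 46.2 and 77.7 CPM in PCN and 28.9, 23.1 and 20.9 CPM in HFD, a 2.43-fold rise (adjusted p = 0.0263). Npm3, a nucleolar chaperone, was 4.96 ± 0.138 CPM (SD, n = 3) in PCN and 2.35 ± 0.396 CPM in HFD, and Snhg8, which hosts a small nucleolar RNA, 8.55 ± 2.09 and 3.52 ± 0.192 CPM. Trnau1ap, a protein bound to the selenocysteine tRNA, rose 3.19-fold, from 2.87 to 3.96 CPM in HFD to 7.38 to 12.5 CPM in PCN. Ears2, which charges glutamyl-tRNA in mitochondria, rose 2.13-fold. Npm3, Snhg8 and Ears2 were not called with the length trend removed (adjusted p = 0.124, 0.0801 and 0.0582).

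**Figure D3:**
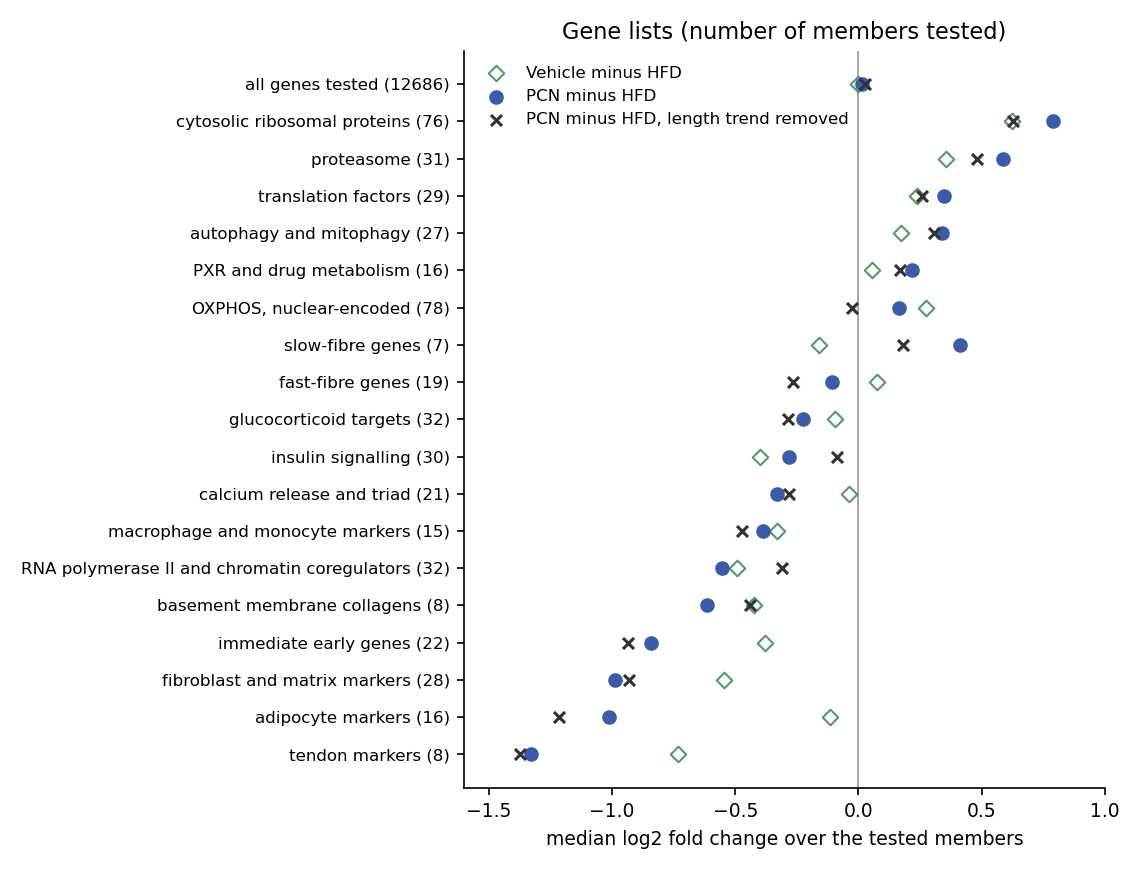
Median log2 fold change over the tested members of 18 gene lists and of all genes tested (x axis), with the number tested after each name. Filled circles are PCN minus HFD, open diamonds Vehicle minus HFD and crosses PCN minus HFD with the length trend removed. Ribosomal protein and proteasome genes lie highest, at 0.79 and 0.59, and tendon, adipocyte and fibroblast markers lowest, at -1.33, -1.01 and -0.99.

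Proteasome genes were higher in PCN. The proteasome is the barrel-shaped protease that degrades ubiquitin-tagged proteins, built of alpha and beta core subunits (Psma, Psmb) and regulatory subunits (Psmc, Psmd). All 31 genes tested were higher in PCN, 22 with ranges that did not overlap and 3 past the threshold, with a median of 0.59. Of all genes tested, 51.5% were higher and 13.9% were higher with ranges that did not overlap. The threshold was passed by 1.3% as higher and 1.64% as lower. The 3 called were core subunits. Psma7 rose 2.42-fold (1.27 ± 0.24 SE, adjusted p = 0.0301), Psmb3 2.06-fold (adjusted p = 0.0282) and Psma4 2.03-fold (adjusted p = 0.0269). Psma4 stood at 89.7, 88.4 and 125 CPM in PCN and at 52.8, 49.1 and 48.5 CPM in HFD, so PCN 27 was highest and the other 2 PCN libraries still lay above HFD. DESeq2 called 13 of the 31, the fit without the length trend called 0, and without PCN 27 the list median was 0.41. Of 27 autophagy genes 22 were higher and 5 lower, with a median of 0.34, and 1 was called in each direction. Gabarap, which coats growing autophagosomes, rose 1.99-fold (98.4, 92.1 and 120 CPM against 49.7, 54.1 and 52.8, adjusted p = 0.0263). Ulk1, the kinase that starts autophagy, fell to 32.3, 19.8 and 42.0 CPM from 104, 87.8 and 72.2 (-1.48 ± 0.27 SE, adjusted p = 0.0278). Ulk1 was still called with the length trend removed and Gabarap was not (adjusted p = 0.0514). Asb11, an adaptor that brings substrates to a ubiquitin ligase, rose 2.40-fold, and Asb15 of the same family fell 2.83-fold, and only the latter was called with the length trend removed. Of the 13 genes of this family 5 were higher and 8 lower. Vehicle 55 was within the HFD range of Asb15, at 90.5 CPM, and the other 2 Vehicle libraries were below it.

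Hipk2 (chr6:38694390-38876165, minus strand, protein-coding), a nuclear kinase that phosphorylates transcription factors under stress, had the lowest p of all genes. It stood at 44.2, 36.5 and 35.8 CPM in PCN and 178, 164 and 135 CPM in HFD, a fall of 4.08-fold (-2.03 ± 0.18 SE, adjusted p = 0.00699). Vehicle was at 49.0, 41.5 and 74.0 CPM, and Chow was divided, with 61.0 and 48.6 CPM in Chow 8 and 17 and 182 CPM in Chow 19. Hipk2 stayed past the threshold with the length trend removed (adjusted p = 0.0104).

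Genes of the transcription machinery were lower. Of 32 genes for RNA polymerase II and its chromatin coregulators, 31 were lower in PCN, 8 past the threshold, and the median was -0.55. Kmt2d, a histone H3 lysine 4 methyltransferase, fell from 235, 216 and 175 CPM in HFD to 99.0, 53.9 and 85.5 CPM in PCN (-1.38 ± 0.24 SE, adjusted p = 0.0263). The chromatin remodeller Arid1a (-0.95), the acetyltransferases Crebbp (-0.92) and Ep300 (-0.89) and Polr2a, the largest subunit of the polymerase (-0.87), fell as well. Vehicle stood at 74.3, 55.1 and 103 CPM of Kmt2d, and Chow 19 was at the HFD level with 236 CPM. These genes had a median exonic length of 11.2 kb. With the length trend removed the list median was -0.31 and 1 gene was called. Tead1, the DNA-binding partner of the YAP coactivator, fell 2.82-fold (168, 90.2 and 83.3 CPM against 324, 372 and 271). It was not called with the length trend removed (adjusted p = 0.0580).

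Immediate early genes code for transcription factors and regulators that respond within minutes to activity, hormones and cyclic AMP. Of 22 tested, 20 were lower in PCN, 4 past the threshold and none higher past it, and the median was -0.84. Many respond through CREB, a factor that binds TGACG and its longer palindrome TGACGTCA. The start region of Nr4a1 (chr15:101266726-101266850, plus strand, GRCm38.p6 from RefSeq) is shown from 120 bases before to 5 bases after the start, because Nr4a1 was called and its window holds the short motif, read on the other strand as CGTCA and put in capitals.
Nr4a1: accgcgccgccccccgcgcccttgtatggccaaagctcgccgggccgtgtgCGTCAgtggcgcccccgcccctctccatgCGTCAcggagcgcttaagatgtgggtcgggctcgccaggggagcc
On either strand TGACG was in 16 of the 26 windows of this list, each 300 bases long (61.5%), and in 20.8% of all windows. The palindrome, whose matches are contained in those of the shorter motif, was in 3 of 26 (11.5%) and in 1.79% of all. Ribosomal protein windows held TGACG in 45.6%. Nr4a3, which was called as well, has no TGACG from 120 bases before to 5 bases after its start. Maff, also called, has it in that stretch of an annotated start and not in those of its other starts. Sik1 had no start window.

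Nr4a3, an orphan nuclear receptor induced by exercise and adrenergic signals, stood at 10.7, 12.5 and 13.4 CPM in PCN and 63.6, 45.0 and 26.9 CPM in HFD. It fell 3.67-fold (-1.88 ± 0.29 SE, adjusted p = 0.0263), and all PCN libraries lay below HFD 38, the lowest of its group. Nr4a1, its close relative, fell from 246, 233 and 193 CPM to 91.8, 132 and 88.9 CPM (-1.10 ± 0.20 SE, adjusted p = 0.0279). Sik1, a kinase that restrains CREB coactivators, was 54.4 ± 5.63 CPM (SD, n = 3) in HFD and 27.5 ± 4.30 CPM in PCN (adjusted p = 0.0263). Maff, a small Maf factor, fell 2.70-fold, from 10.9 to 14.1 CPM in HFD to 3.62 to 6.69 CPM in PCN. Vehicle differed among these genes. Nr4a3 and Maff were low there, at 11.0 to 15.5 and 3.80 to 4.92 CPM, while Nr4a1 and Sik1 were at 142 to 205 and 40.3 to 47.0 CPM, above every PCN library. Without HFD 4 the list median was -0.46. All 4 stayed past the threshold with the length trend removed.

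**Figure D4:**
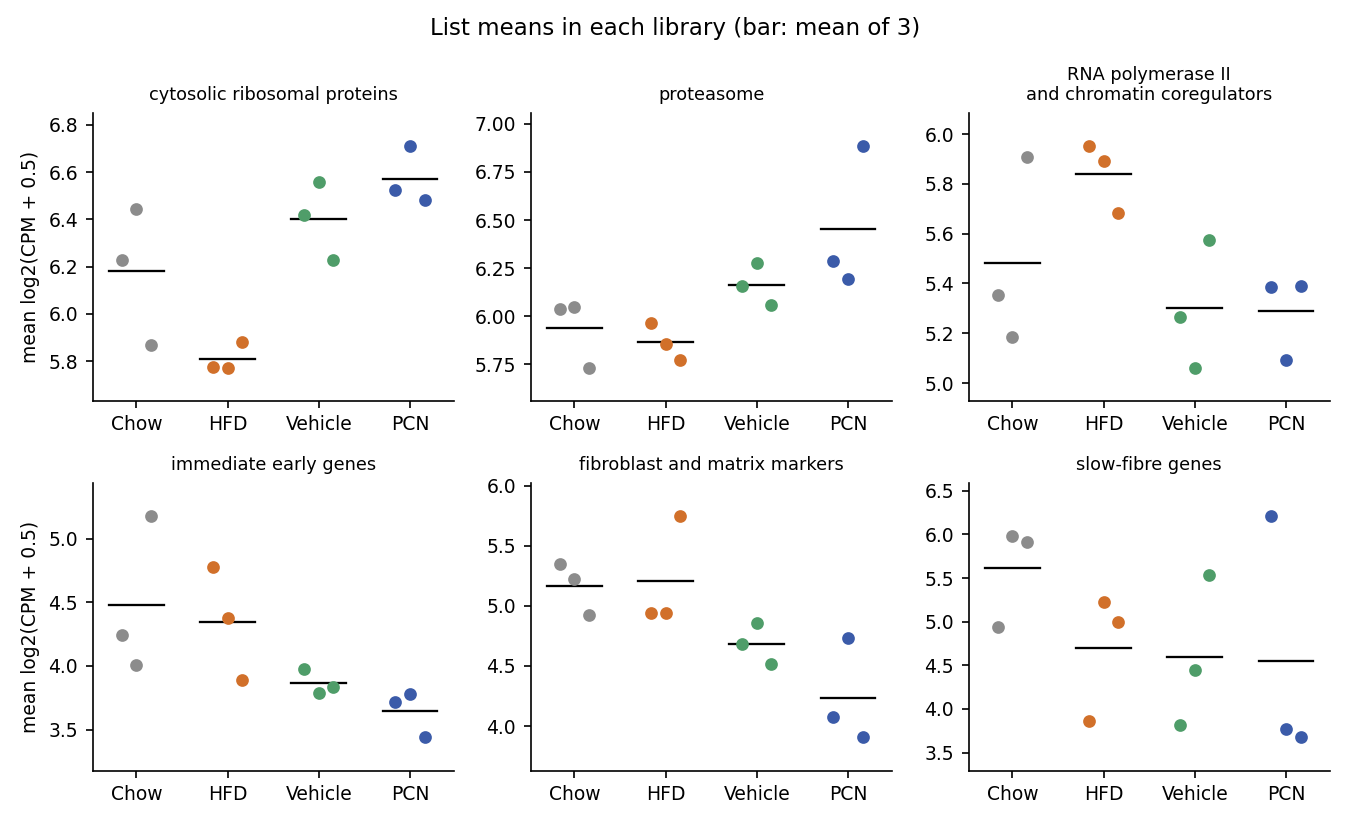
Mean log2(CPM + 0.5) over the tested members of 6 lists (y axis) in each library, by group, with a bar at the mean of 3. PCN lies above HFD in ribosomal protein and proteasome genes and below it in the coregulators, immediate early genes and fibroblast markers, with no overlap in these 5. In slow-fibre genes PCN 5, at 6.21, stands far above PCN 11 and 27.

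Markers of fibroblasts, matrix and tendon were lower in PCN. In whole muscle, fewer cells of a type and less RNA per cell cannot be told apart. Of 28 fibroblast and matrix genes 26 were lower, 17 at an unadjusted p under 0.05 (10.2% of all genes tested were lower and 10.6% higher at that p) and 1 past the adjusted threshold, with a median of -0.99. Summed, they made up 1026 to 1641 CPM in PCN against 1529 to 2820 CPM in HFD, and 1389 to 1786 CPM in Vehicle against 1655 to 2448 CPM in Chow. The called member was Col5a2, a fibrillar collagen chain, at 15.2 ± 5.78 CPM (SD, n = 3) in PCN and 44.9 ± 16.5 CPM in HFD (-1.56 ± 0.32 SE, adjusted p = 0.0453). Col1a1, the main type I collagen chain, had the widest difference among the collagens named, 13.7 ± 10.8 CPM (SD, n = 3) against 67.3 ± 22.5 CPM, and did not pass (-2.30 ± 0.58 SE, adjusted p = 0.101). HFD 38 was the highest HFD library for both, and without it the list median was -0.61. DESeq2 called 14 of the 28, and the fit with the length trend removed called 0.

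Basement membranes sheathe each muscle fibre, and 8 of 8 genes of that list were lower, 3 past the threshold. Hspg2, which encodes perlecan, stood at 115, 116 and 79.8 CPM in PCN and 215, 229 and 296 CPM in HFD (-1.24 ± 0.21 SE, adjusted p = 0.0263). The type IV collagen chains Col4a1 (2.31-fold) and Col4a2 (2.36-fold), which lie next to each other on chromosome 8, fell as well. With the length trend removed, the list median went from -0.61 to -0.44 and none of the 3 was called (adjusted p = 0.0582 to 0.0801). Vehicle had 145, 147 and 159 CPM of Hspg2, between the groups and with no overlap with either. Of 8 tendon genes 7 were lower and 3 past the threshold. Kera, a proteoglycan that spaces collagen fibrils, was the largest fall named, at 0 in PCN 5 and 0.189 and 0.372 CPM in PCN 11 and 27 against 1.70, 2.03 and 2.29 CPM in HFD (-3.27 ± 0.62 SE, adjusted p = 0.0292). Col12a1 (2.71-fold) and Col11a1 (4.03-fold), collagens of fibril surfaces and fibril cores, fell too, the latter from only 1.40 to 2.79 CPM. Kera alone of the 3 was called with the length trend removed. Summed tendon markers were 34.9 to 49.5 CPM in PCN and 68.9 to 139 CPM in HFD, and their part in the matrix genes was not tested.

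Other cell types gave weaker or uneven differences. No member of the 16 adipocyte genes tested passed, though their median was -1.01. Adipoq was 4.20, 10.2 and 9.47 CPM in PCN and 11.2, 13.9 and 48.7 CPM in HFD, and without HFD 38 the list median was -0.05. Of 15 macrophage genes 12 were lower, and without HFD 38 their median went from -0.39 to -0.07. Top2a, a topoisomerase of dividing cells, was the only proliferation gene of 10 to pass, at 0.139 to 0.379 CPM in PCN and 1.29 to 2.06 CPM in HFD (-2.55 ± 0.47 SE, adjusted p = 0.0279). It was not called once the length trend was removed (adjusted p = 0.0514). Vehicle (0.109 to 0.463 CPM) and Chow (0.113 to 0.489 CPM) were also below every HFD library. None of the 13 T and B cell markers present was abundant enough to test.

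Of 24 sodium pump and ion channel genes 18 were lower and 6 higher in PCN, and the median was -0.24. The threshold was passed by 3, all of them lower. Atp1b2, a beta subunit of the sodium pump, stood at 17.7, 20.8 and 16.3 CPM in PCN and 84.7, 76.4 and 56.9 CPM in HFD, a fall of 3.97-fold (-1.99 ± 0.19 SE, adjusted p = 0.00847). Vehicle was at 18.3 to 27.5 CPM, and Chow ranged from 12.2 CPM in Chow 17 to 57.3 CPM in Chow 19. Kcnq5, a voltage-gated potassium channel of the M-current family, fell to 16.6, 17.2 and 14.8 CPM from 42.5, 37.3 and 35.9 (-1.25 ± 0.15 SE, adjusted p = 0.0185). Kcnc1, a fast Kv3 potassium channel, fell 2.76-fold from 107 ± 12.2 CPM (SD, n = 3), and it was not called with the length trend removed (adjusted p = 0.0825), whereas Atp1b2 and Kcnq5 were. Outside the list, Best3, a bestrophin-family anion channel, fell 3.79-fold, and it was not called with the length trend removed (adjusted p = 0.0527). Of 21 calcium release and triad genes, Trdn, which anchors calsequestrin to the ryanodine receptor, was at 707, 491 and 384 CPM in PCN and 1397, 1151 and 1066 CPM in HFD (-1.19 ± 0.26 SE, adjusted p = 0.0412). Stim1, the calcium sensor of the reticulum, fell 1.67-fold. Neither was called with the length trend removed (adjusted p = 0.0823 for Trdn and 0.107 for Stim1). The receptor itself, Ryr1, missed the threshold at -0.91 ± 0.24 SE (adjusted p = 0.0753).

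In a few genes, chosen after their values were seen, Vehicle lay well above PCN. For Kcnq5 and Trdn it was nearer to HFD. Kcnq5 was 33.3, 25.7 and 40.4 CPM and Trdn 1200, 1456 and 886 CPM there, so no PCN library overlapped Vehicle in these 2 genes, as in 8.4% of all genes tested in that comparison. Their differences of PCN minus Vehicle were -1.03 and -1.16, and no gene passed in that comparison. Fras1, a matrix protein of epithelial basement membranes, was at 1.02, 0.820 and 0.975 CPM in PCN, 4.40, 2.33 and 2.93 CPM in Vehicle and 6.06, 4.83 and 6.91 CPM in HFD. It fell 6.25-fold against HFD (adjusted p = 0.00925), with a PCN minus Vehicle value of -1.76. Arnt2, a bHLH-PAS transcription factor, was 0.446, 1.07 and 0.279 CPM in PCN, 2.66, 1.25 and 2.28 CPM in Vehicle and 2.51, 2.73 and 4.46 CPM in HFD (5.50-fold lower than HFD, adjusted p = 0.0339). Fam189b fell 3.87-fold, with a PCN minus Vehicle value of -1.77. Arnt2 and Fam189b were not called with the length trend removed (adjusted p = 0.0597 and 0.0577).

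**Figure D5:**
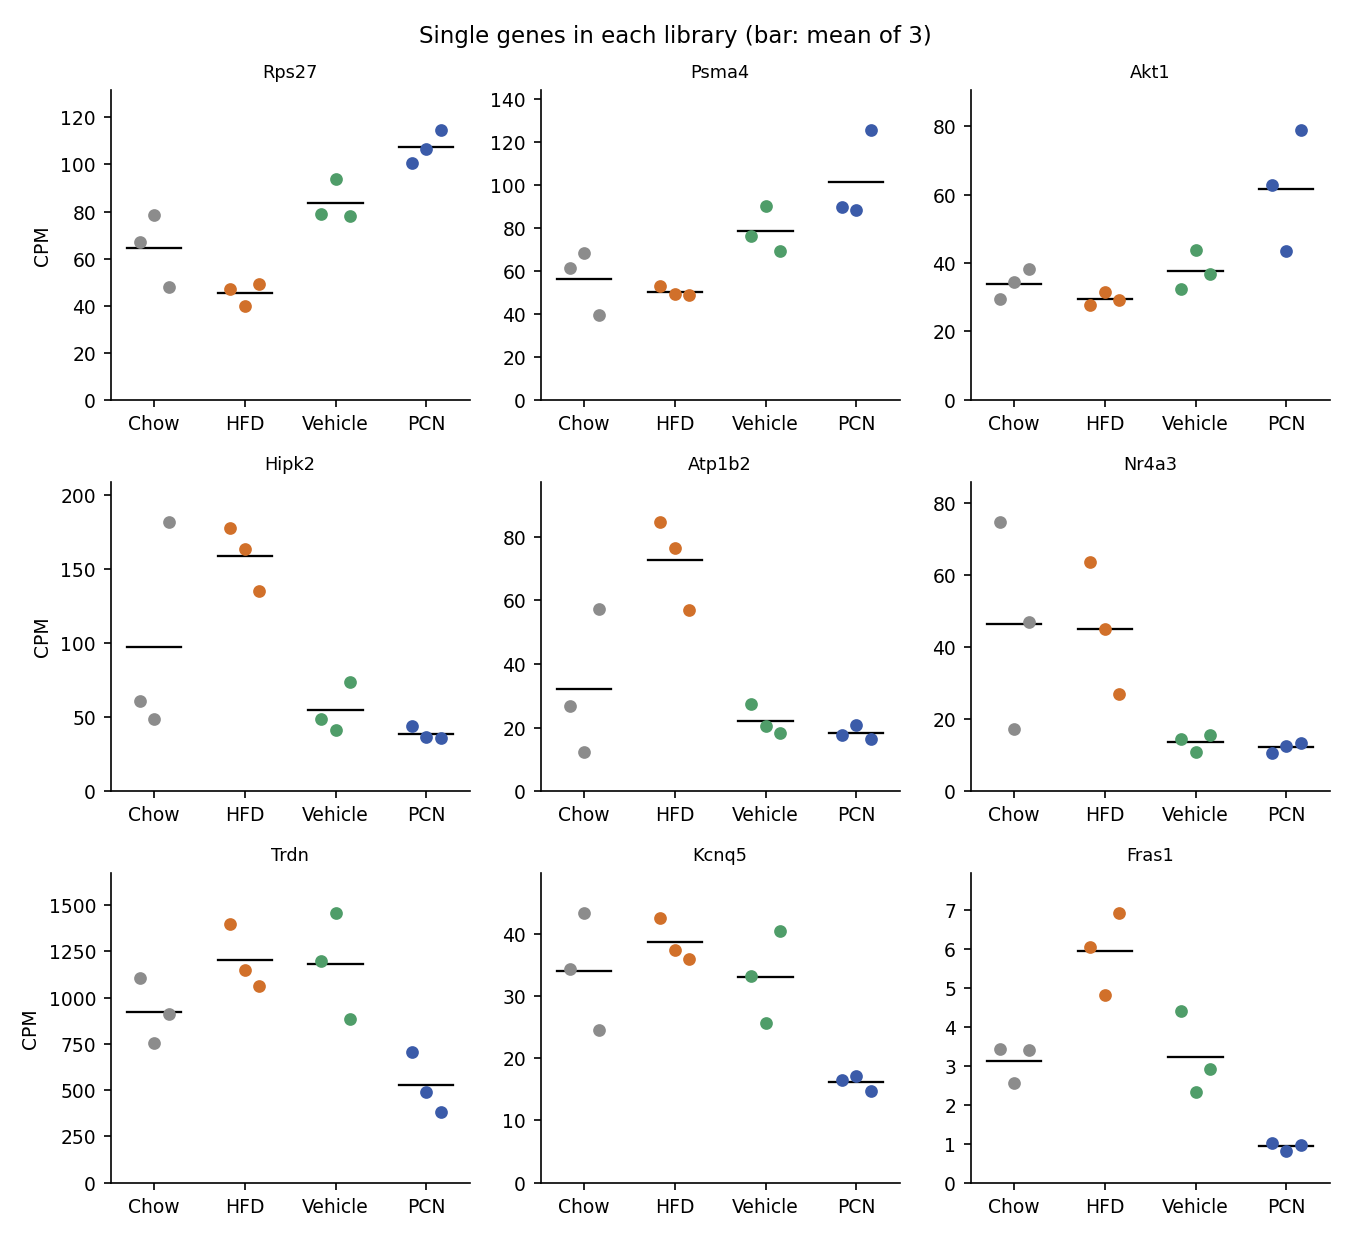
CPM (y axis, from 0) of 9 genes in each library, by group, with a bar at the mean of 3. Rps27 is highest in PCN with Vehicle between PCN and HFD. Psma4 has its highest mean in PCN, but Vehicle 23 lies just above PCN 5 and PCN 11. Hipk2, Atp1b2 and Nr4a3 are low in PCN and Vehicle, and the PCN libraries of Trdn, Kcnq5 and Fras1 lie below every other library.

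Of 32 glucocorticoid targets 24 were lower in PCN, 4 past the threshold and none higher past it, and the median was -0.23. Fkbp5, a chaperone induced strongly by glucocorticoids, was 77.7 ± 4.68 CPM (SD, n = 3) in PCN and 101 ± 13.9 CPM in HFD and did not pass (-0.37 ± 0.16 SE, adjusted p = 0.227). The 4 called were Foxo1, a forkhead factor of fasting, at 30.6, 36.1 and 18.9 CPM against 89.4, 69.2 and 62.8 (-1.37 ± 0.24 SE, adjusted p = 0.0278), the cell-cycle inhibitor Cdkn1a (2.48-fold lower), the clock repressor Per1 (1.96-fold lower) and the zinc-finger factor Zbtb16 (1.66-fold lower). Without HFD 4 the list median was -0.09, and without PCN 27 it was -0.44. Removal of the length trend left Cdkn1a and Per1 called and Foxo1 and Zbtb16 not (adjusted p = 0.0527 and 0.0671). Pdk4, a fasting-induced brake on glucose oxidation, was 1274 ± 236 CPM in PCN and 1910 ± 219 CPM in HFD (adjusted p = 0.186).

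Of 12 core clock genes 7 were lower and 5 higher in PCN, and only Per1 and Nr1d1, both lower, passed the threshold. Per1 was 54.3, 57.5 and 42.6 CPM in PCN and 99.9, 112 and 92.1 CPM in HFD (adjusted p = 0.0263), and Nr1d1, the repressor REV-ERB alpha, 18.2, 17.7 and 20.5 CPM against 30.4, 46.0 and 35.5 (adjusted p = 0.0278). Arntl, which encodes BMAL1, did not pass, with 11.2, 10.7 and 28.4 CPM in PCN and 17.5 to 25.9 CPM in HFD. Dbp, a clock output factor, did not pass either (0.62 ± 0.39 SE, adjusted p = 0.412). The sources used here do not give the hour of tissue collection.

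Of 30 insulin signalling genes 8 were higher and 22 lower in PCN, and 1 rise and 2 falls passed the threshold. Among all genes tested, 51.5% were higher and 48.5% lower, with 1.3% called higher and 1.64% called lower. Akt1, a kinase that carries the insulin signal, was 62.7, 43.5 and 78.8 CPM in PCN and 27.8, 31.4 and 29.2 CPM in HFD, a 2.10-fold rise (adjusted p = 0.0339), with Vehicle at 32.3 to 43.8 CPM. Tbc1d1, which restrains glucose transporter traffic until it is phosphorylated (1.88-fold), and Inppl1, the phosphatase SHIP2 (1.94-fold), fell. After removal of the length trend the list median went from -0.28 to -0.09 and none of the 3 was called (adjusted p = 0.0527 to 0.0851). Slc2a4, the insulin-responsive glucose transporter, was 230 ± 34.1 CPM (SD, n = 3) in PCN and 248 ± 4.52 CPM in HFD and did not pass (adjusted p = 0.777). Txnip, a glucose-induced brake on glucose uptake, rose from 265, 242 and 250 CPM to 496, 451 and 514 CPM (0.96 ± 0.17 SE, adjusted p = 0.0272), and Vehicle and Chow were at 418 to 446 and 344 to 520 CPM. Fasn, the fatty acid synthase, fell 2.59-fold (19.4, 24.2 and 15.0 CPM against 49.3, 40.3 and 62.6) and Me1, which makes NADPH for lipid synthesis, 1.81-fold. They were the only 2 called of 20 lipogenic genes. Nr1h3, the oxysterol receptor LXR alpha, rose 2.19-fold, and Stbd1, which tethers glycogen for autophagy, 2.40-fold. Stbd1 was still called with the length trend removed and Nr1h3 was not (adjusted p = 0.0527). None of 42 fatty acid use genes passed, Ucp3 among them (adjusted p = 0.595).

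Of the 78 nuclear-encoded respiratory chain genes 61 were higher, but the median was 0.17 and 1 passed, Atp5g2 of the ATP synthase rotor (59.3, 63.7 and 57.9 CPM against 32.8, 39.2 and 34.2, adjusted p = 0.0279). With the length trend removed that median was -0.02 and the gene was not called. None of 11 mitochondrially encoded genes passed. Sod1, the cytosolic superoxide dismutase, rose 1.77-fold and was the called member of 23 antioxidant genes. Hspe1, the mitochondrial co-chaperonin, rose 1.79-fold. Myog, the myogenic factor that also responds to loss of nerve activity, rose 3.03-fold (6.37, 5.30 and 12.1 CPM against 3.48, 2.52 and 2.01, adjusted p = 0.0461), and Rapsn, which clusters acetylcholine receptors, 1.64-fold. They were the 2 called of 22 neuromuscular junction genes. Of these 22, 12 were higher and 10 lower, with a median of 0.006. At an unadjusted p under 0.05, 3 were higher and 4 lower, against 10.6% higher and 10.2% lower among all genes tested. None of Sod1, Hspe1, Myog and Rapsn was called with the length trend removed.

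Among PXR-linked genes 1 rise and 1 fall passed the threshold. Of 41 listed, 21 were in both tables and 16 were abundant enough to test, and 11 of these were higher in PCN. Among all genes tested, 51.5% were higher, 1.3% were called higher and 1.64% were called lower. Gstp1, a glutathione transferase, was the called rise, at 38.4 ± 3.54 CPM (SD, n = 3) in PCN and 20.9 ± 1.07 CPM in HFD (0.88 ± 0.15 SE, adjusted p = 0.0263), with Vehicle at 24.1 to 37.1 CPM. Gadd45b, a growth-arrest gene induced by PXR activators in liver, was the called fall, at 10.8, 13.4 and 11.4 CPM against 22.5, 22.5 and 31.9 (adjusted p = 0.0263). Abcb1b, a drug efflux pump, was 19.2, 11.3 and 33.1 CPM in PCN and 10.7, 7.35 and 7.19 CPM in HFD. Every PCN library lay above HFD, but the spread was wide and the gene did not pass (1.36 ± 0.38 SE, adjusted p = 0.107). Gstm1 (0.59) and Gstm2 (0.88) did not pass either, and near-identical members of the Gstm family can share reads. The list median was 0.22, and -0.09 without PCN 5. Gadd45b was called with the length trend removed and Gstp1 was not (adjusted p = 0.0709).

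The remaining genes with the largest changes belonged to no list. Among the rises, B3galt6, a galactosyltransferase of proteoglycan assembly, went from 0.323 to 0.700 CPM in HFD to 1.64 to 2.46 CPM in PCN (3.82-fold), and Klf10, a Krüppel-like factor induced by TGF-beta, rose 2.64-fold. Tnfsf13os, annotated as antisense, rose 4.21-fold, and Polr1has, annotated as protein-coding, rose 2.41-fold. Since the strand setting of the counting is not given, these rises cannot be separated from reads of any genes that overlap them. Among the falls were Pclo, a scaffold of nerve terminals (5.70-fold, from 1.56 to 2.99 CPM), the atypical cadherin Fat3 (4.49-fold), Mdga1, a membrane-anchored adhesion protein (5.74-fold), Map3k7cl (5.57-fold) and Tlcd3b (4.42-fold). Gbp10, of the guanylate-binding protein family, was at 1.34, 1.20 and 0.279 CPM in PCN and 7.43, 7.07 and 4.90 CPM in HFD (7.04-fold lower), and near-identical relatives may share its reads. Most of these genes were under 10 CPM, so each rests on few reads. With the length trend removed, B3galt6, Klf10, Tnfsf13os and Mdga1 were not called (adjusted p = 0.0575 to 0.0825). A further 18 of the 373 called genes were pseudogenes or gene models without an assigned name.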

How the data were processed

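Whole-number, unscaled read counts per gene were deposited by the authors in 2 tables, PCN beside Vehicle and HFD beside Chow. HISAT2, HTSeq and DESeq2 are named in the submitters' processing notes, as are the builds GRCm38 and mm10. The sources used here give no versions, annotation release or strand setting. Joining the 24453 and 24093 genes of the tables by identifier gave 21976. Genes in a single table were not analysed here, and a few results are not reported here. The 6 libraries of a comparison were fitted alone in edgeR 4.0.16 under R 4.3.3 (TMM factors, filterByExpr with a minimum count of 10, robust quasi-likelihood F test, Benjamini-Hochberg adjusted p under 0.05). The SE of a log2 fold change is its size over the root of F. DESeq2 1.42.0, other scaling and filters, offsets for length and GC content, a slow-fibre covariate and leaving out each library were alternatives. On simulated data for PCN against HFD over 12684 genes, edgeR recovered 50.0% of 2-fold and 100.0% of 4-fold changes. The simulation gave every gene the same biological coefficient of variation (0.229) and changed only the more abundant genes. Recovery can be lower for genes with a wider spread or fewer reads. Named genes were the 15 largest rises and 15 largest falls among called genes that reached a mean of 1 CPM and whose ranges did not overlap, up to 6 members of lowest p in each described list, and a fixed set of 19. Members and the 48 lists were chosen with earlier results of these data known. Exonic length, GC content and gene positions came from GENCODE on GRCm38, whose positions matched 97.6% of the shared genes it held, and start-site sequences from RefSeq on GRCm38.p6.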

Additional observations from a re-analysis of the deposited data

How the results depend on the processing

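For PCN against HFD, 373 genes were called. DESeq2 called 816 of the 9732 genes it gave an adjusted p (8.38%), no expression filter gave 672, the removal of the length trend 131 and of length and GC trends together (chosen after seeing the data) 90. An adjusted p threshold of 0.01 left 4 genes and one of 0.1 gave 848. The other scalings and filters, the joint fit of 12 libraries and the slow-fibre covariate gave 376 to 554, the joint fit with 310 higher and 244 lower. Leaving out each library gave 0 to 634 by edgeR and, chosen after seeing the data, 311 to 1159 by DESeq2 (945 without PCN 5, 1159 without PCN 11, 656 without PCN 27). For Vehicle against HFD, 193 genes were called, against 614 by DESeq2, 571 with no filter, 0 in the joint fit of 12 libraries (1708 at an unadjusted p under 0.05), 590 with the slow-fibre covariate, 27 and 26 with the length and the length and GC trends removed, 0 and 564 at thresholds of 0.01 and 0.1, and 0 to 1180 without 1 library. PCN against Vehicle gave 0 under every one of these alternatives that was run, with 251 to 1011 genes at an unadjusted p under 0.05. The causes were not tested. The 83 named genes that were called had the same sign in each alternative in which they were tested (77 with a minimum count of 30). DESeq2 called 75 of them, the length fit 37, the length and GC fit 25, and the fits without HFD 4, HFD 30 and HFD 38 called 0, 3 and 3. No list median described in the report as lower changed sign, while those of PXR-linked, slow-fibre and respiratory chain genes did. No paired analysis was possible because each library carries its own number, so the groups share none. With 3 libraries a group and recovery of 50.0% of simulated 2-fold changes, a gene not called may still differ.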

Other observations

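Slow-fibre genes varied between libraries of a group more than between groups. In PCN 5, 11 and 27 Actn2, an actinin of the Z disc, was at 1530, 261 and 339 CPM and Tpm3, the slow tropomyosin, at 73.2, 11.7 and 9.33 CPM, while HFD ranged from 385 to 814 and from 13.9 to 20.2 CPM. None of the 7 slow-fibre genes tested passed, and the list median of 0.41 was -1.10 without PCN 5. H19, an imprinted noncoding RNA, was at 658 CPM in PCN 5, 204 and 164 CPM in PCN 11 and 27 and 72.1 to 132 CPM in HFD, and did not pass (adjusted p = 0.181). Eif4ebp1, a repressor of translation initiation, was at 235 CPM in PCN 27, 93.4 and 40.4 CPM in PCN 5 and 11 and 32.4 to 39.2 CPM in HFD, without a call (adjusted p = 0.172). Kcnq1ot1, a long noncoding RNA annotated antisense to Kcnq1, was lower in PCN (-0.85 ± 0.18 SE, adjusted p = 0.0385), but its value was -0.27 with the length trend removed. Chow 19 stood at the HFD level for many of the genes that were low in PCN, with 334 CPM of Tead1, where Chow 8 and 17 had 135 and 132 CPM.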
